A study of Mus musculus with 36 samples.

Results

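The collagen genes of the CUG960 heart were described across both chambers and the 6 cohorts analysed here. Members were the gene symbols of the form Col, a type number, the letter a and a chain number, with a mean of at least 10 reads per library over the 36 libraries. Of the 55291 symbols listed, 44 had this form and 40 passed the count minimum, and all 40 were among the 19231 genes tested. Col24a1, a fibrillar collagen, lay just inside the minimum at a mean of 10.03 reads, and Col19a1, a fibril-associated collagen, lay just outside at 3.11. The other 3 genes left out were Col2a1, the main cartilage collagen, at 2.86 reads, Col6a4 at 1.22 and Col9a1 at 1.08.

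Collagens are extracellular proteins wound from several chains into a helix, and different genes encode the chains of one type. In the heart, fibroblasts make most of the fibrillar collagens (types I, III and V), whose fibrils carry tension between muscle bundles. Type IV chains form the network of basement membranes around cardiomyocytes and capillaries, type VI forms beaded filaments next to them, and FACITs (fibril-associated collagens with interrupted triple helices) sit on fibril surfaces. Multiplexins (types XV and XVIII) tie basement membranes to the matrix, types VIII and X are short-chain network collagens, and a further class spans the cell membrane. Scarring of the myocardium, a feature of many cardiomyopathies, is read out partly through the fibrillar genes.

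All mice carried both transgenes: TREDT960I (Hom), which holds interrupted CTG repeats in human DMPK sequence under a tetracycline-responsive promoter, and MHCrtTA (Hem), the doxycycline-dependent activator under the cardiomyocyte-specific α-MHC promoter. Repeat RNA was therefore made in cardiomyocytes, whereas most collagen transcripts come from other cells. In the +dox cohort doxycycline was given from postnatal day 1 onward, the –dox cohort never received it, and the +/–dox cohort was taken off it at 9 weeks of age. In the 3 vector cohorts, named MBNL1, MBNL2 and MBNL1+MBNL2, doxycycline was continued and AAV9 given at 9 weeks expressed tagged human MBNL1 (3XFLAG), human MBNL2 (3XMYC) or both from the heart-specific TNNT2 promoter. The 3 control cohorts analysed here received no vector, and the study's AAV9-tdTomato cohort was not analysed here, so a vector effect and an MBNL effect cannot be told apart here. Left ventricle and atria were collected from 3 mice per cohort at 21 weeks of age, 12 weeks after vector delivery.

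Libraries held 55.03 to 97.09 M assigned reads (median 72.1 M). Markers of ventricular cardiomyocytes summed to 19780 to 27750 TPM (a transcript level scaled for gene length and library) in ventricular libraries and to 39.97 to 806 in atrial ones, and atrial markers to 40260 to 61760 TPM in atria and 92.2 to 1007 in ventricle, so tissue labels and markers matched. The ventricular MBNL1 replicate 1 library stood apart with 16885 genes listed above 0, against 20578 to 24041 in the other 35. Library names fell into 2 sets by their leading digits, called A and B here. Set B held replicate 3 of 5 cohorts and all 3 replicates of MBNL1+MBNL2, in both tissues. The 10 set-B libraries of those 5 cohorts also had Xist, the RNA of the inactive X chromosome, at 13.6 to 41.2 TPM against at most 0.15 in the other 26, so library set and sex cannot be told apart in them. The paper lists a female mouse in each of these 5 cohorts and only males in MBNL1+MBNL2, so fits within set A hold males only. Library names were not stated to mark a batch, and values within set A are given beside the calls that were lost there.

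Collagen transcripts summed to between 266 and 715 TPM in ventricular libraries (median 442) and between 444 and 962 in atrial ones (median 533). Over all genes, atria to ventricle ratios were higher by a median of 0.54 (log2) in TPM than in scaled read counts. These sums therefore do not rank the chambers. The 10 most abundant genes, led by Col3a1 at a mean of 85.8 TPM, Col4a1 at 71.3, Col1a2 at 60.9 and Col4a2 at 47.9, made up 84.6% to 88.3% of this sum in every library. Col15a1 (43.1 TPM), Col1a1 (37.3), Col6a2 (30.8), Col6a1 (25.8), Col4a5 (24.4) and Col14a1 (14.7) completed them. At the other end Col24a1 averaged 0.0281 TPM and Col11a1 0.0433.

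In the ventricle, summed collagen level was 436, 367 and 266 TPM in the 3 +dox mice, 320.5, 308 and 447 in the –dox mice and 376, 359 and 491 in the +/–dox mice. These groups overlapped, with the set-B library lowest in +dox and highest in –dox and +/–dox. The MBNL2 ventricles held 715, 537 and 458 TPM, each above the highest +dox ventricle. Atrial sums were 480, 466 and 534 TPM in +dox, 493, 468 and 789 in –dox and 487, 444 and 818 in +/–dox mice, again with replicate 3 highest in each. The highest sum of all was the atrial MBNL1+MBNL2 replicate 3, at 962 TPM against 521 and 639 in its cohort.

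**Figure D1:**
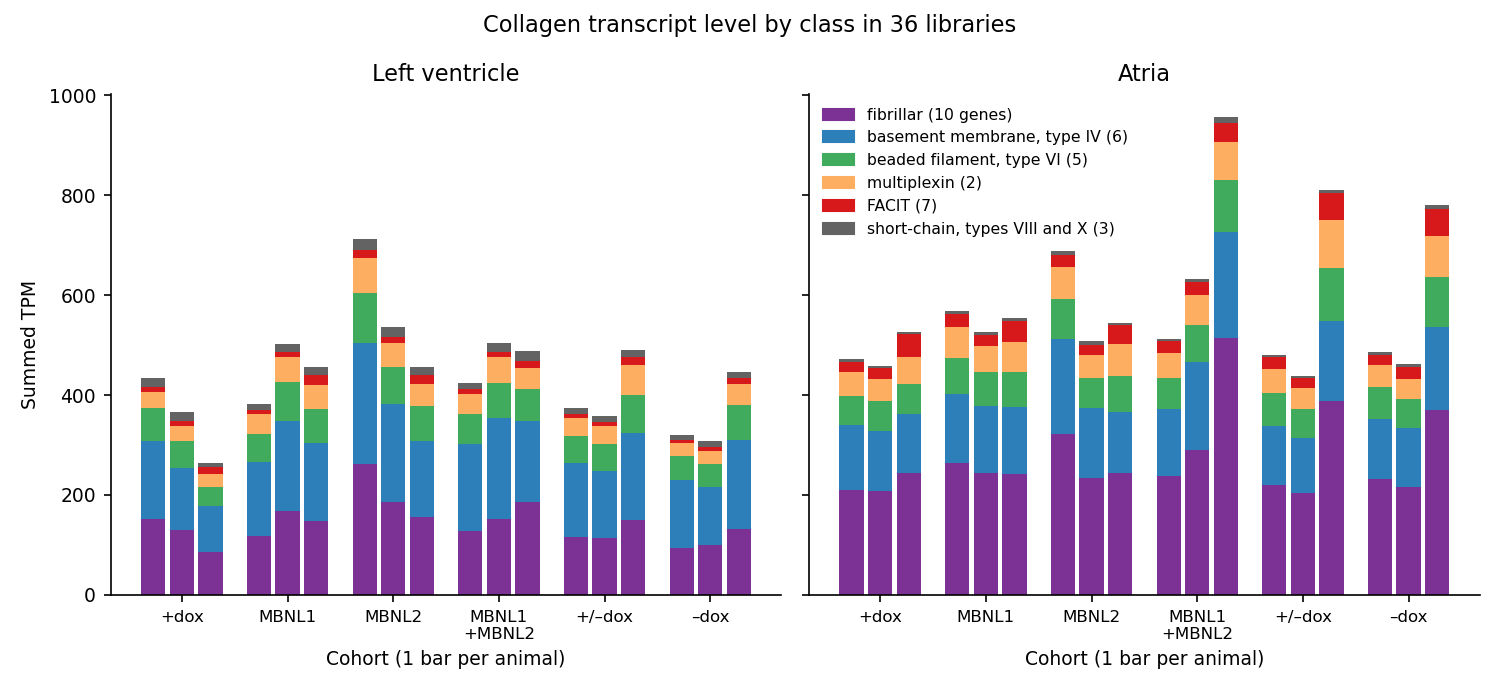
Summed level (TPM, y axis) of the collagen genes of the 6 most abundant classes in each of 36 libraries, with 1 stacked bar per animal grouped by cohort (x axis), for left ventricle (left) and atria (right). Fibrillar genes take 29.2% to 38.1% of the collagen sum in ventricular bars and 43.1% to 53.3% in atrial bars, and the type IV genes 32.9% to 42.6% and 19.5% to 27.5%.

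The chambers differed in class makeup in every cohort. Fibrillar genes took 29.2% to 38.1% of collagen TPM in the 18 ventricular libraries (mean 32.6% ± 2.56, SD) and 43.1% to 53.3% in the 18 atrial ones (45.9% ± 2.16), without overlap. Type IV genes took 32.9% to 42.6% in the ventricle (36.7% ± 2.88) and 19.5% to 27.5% in the atria, also without overlap. The short-chain class was larger in the ventricle (2.64% to 4.503%) than in the atria (0.660% to 1.46%), and the transmembrane class was larger in the atria (0.641% to 1.53%) than in the ventricle (0.179% to 0.560%). FACIT shares overlapped, at 1.90% to 4.96% in the ventricle and 3.63% to 8.54% in the atria. No test was run on these shares, which are fractions of a common total and not independent of each other. In bulk tissue, fewer cells of a type and less RNA per cell cannot be told apart.

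Type IV genes lie in 3 head-to-head pairs. The promoters of 2 are shown, the pair whose chains had the narrowest range of ratios and the pair whose ratio did not overlap between chambers. The windows run from 250 bases before to 50 bases after the start site (RefSeq, GRCm38.p6). Col4a1 (chr8:11312777-11313076, minus strand) and Col4a2 (chr8:11312555-11312854, plus strand) encode the chains of the ubiquitous basement membrane network. Their start sites are 21 bases apart, and capitals mark the 78 bases the 2 windows share, read from opposite strands.
Col4a1: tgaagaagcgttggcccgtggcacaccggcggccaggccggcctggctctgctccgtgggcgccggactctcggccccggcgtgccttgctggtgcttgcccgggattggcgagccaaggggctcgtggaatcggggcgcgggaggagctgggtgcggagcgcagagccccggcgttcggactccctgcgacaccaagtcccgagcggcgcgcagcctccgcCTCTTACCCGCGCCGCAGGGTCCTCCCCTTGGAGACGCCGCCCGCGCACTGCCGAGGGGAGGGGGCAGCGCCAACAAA
Col4a2: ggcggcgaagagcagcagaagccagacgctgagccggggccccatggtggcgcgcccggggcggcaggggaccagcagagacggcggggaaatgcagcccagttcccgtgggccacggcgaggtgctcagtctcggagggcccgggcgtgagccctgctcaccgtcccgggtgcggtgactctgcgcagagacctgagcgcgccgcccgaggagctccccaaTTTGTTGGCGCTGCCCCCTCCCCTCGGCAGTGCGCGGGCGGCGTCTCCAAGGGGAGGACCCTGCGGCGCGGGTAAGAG
Col4a5 (chrX:141475169-141475468, plus strand) and Col4a6 (chrX:141474027-141474326, minus strand) encode chains of more restricted networks in the kidney filter, smooth muscle and epithelial basement membranes. Their start sites are 1343 bases apart and their windows share no base, so capitals there mark the 50 bases from the start site onward.
Col4a5: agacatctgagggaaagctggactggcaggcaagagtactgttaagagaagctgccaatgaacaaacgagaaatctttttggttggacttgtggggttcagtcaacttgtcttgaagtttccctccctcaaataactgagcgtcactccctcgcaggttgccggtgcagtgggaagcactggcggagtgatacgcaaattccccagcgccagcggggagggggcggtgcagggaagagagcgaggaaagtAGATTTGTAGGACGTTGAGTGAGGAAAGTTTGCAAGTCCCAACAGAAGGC
Col4a6: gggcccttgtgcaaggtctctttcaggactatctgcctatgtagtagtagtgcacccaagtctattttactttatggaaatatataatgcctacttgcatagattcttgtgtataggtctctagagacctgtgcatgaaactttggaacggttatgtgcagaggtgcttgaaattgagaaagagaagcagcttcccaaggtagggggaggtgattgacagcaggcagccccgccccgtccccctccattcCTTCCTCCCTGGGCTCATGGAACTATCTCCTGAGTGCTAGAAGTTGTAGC
The Col4a1 and Col4a2 windows were 74.0% and 73.7% G or C, those of Col4a5 and Col4a6 52.7% and 48.3%, and the median over all mouse promoter windows was 52.7%. The GC box core GGGCGG, searched on both strands, was in all 4 windows, in 21 of the 32 collagen genes with a window and in 35.7% of 32851 promoters. The CCAAT box, letters CCAAT on either strand, was in all but Col4a6, in 11 of the 32 and in 37.4% of promoters. None of the 4 held TATAAA, found in 5 of the 32 and in 13.6% of promoters. Collagens were counted per gene, with any window holding the motif, and promoters per window, so the 2 shares are not in like units.

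The Col4a1 to Col4a2 ratio stayed between 1.33 and 1.57 in the 18 ventricular libraries and between 1.41 and 1.72 in the 18 atrial ones on the TPM scale. The Col4a5 to Col4a6 ratio was 10.9 to 31.4 in the ventricle and 3.87 to 7.98 in the atria, without overlap. In the other pair, Col4a4 to Col4a3 was 2.28 to 3.81 in the ventricle and 2.61 to 3.86 in the atria, which overlapped. Type I chains, Col1a1 to Col1a2, ranged from 0.424 to 0.705 in the ventricle and 0.471 to 0.754 in the atria, and the main type VI chains, Col6a1 to Col6a2, from 0.829 to 1.16 and 0.676 to 0.923. Col3a1 to Col4a1, a fibroblast chain over a basement membrane chain, was 0.481 to 0.933 in the ventricle and 1.46 to 2.49 in the atria, without overlap.

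The first question was whether collagen transcripts differed with repeat RNA, or after its withdrawal. No mice given doxycycline without the repeat transgene were analysed here. Effects of repeat RNA and of doxycycline itself therefore cannot be told apart in the dox comparisons. A gene is said to be called where the adjusted p was below 0.05 and the change at least 1.5-fold (edgeR's quasi-likelihood test, Benjamini-Hochberg adjustment over 19231 genes), and all fold changes are log2 ± SE on the count scale. In the ventricle, –dox against +dox called 2 of 40 collagen genes, 1 higher and 1 lower, where 7.6% of all genes tested were called. Against +dox, the +/–dox ventricles called 4 of 40, all higher, with 6.6% of all genes called. In the atria 2 of 40 were called in –dox, both higher, with 5.23% of all genes called, and 0 of 40 in +/–dox, with 3.99% called. For that count of 0 in edgeR, 7 members had an unadjusted p below 0.05, against 25.2% of all genes, and DESeq2 called 4 members. Both dox comparisons share the +dox mice of their tissue.

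Median fold change over the 40 was 0.05 in –dox and 0.17 in +/–dox ventricles (all genes 0.01 and 0.00), with 22 and 24 of 40 above 0. In atria it was 0.35 and 0.34 (all genes 0.03 and 0.03), with 37 and 33 of 40 above 0, where 53.4% of all genes were above 0 in each comparison. All 10 fibrillar, 6 type IV and 5 type VI genes had positive atrial values in both comparisons, of which only fibrillar Col11a2 in –dox was called. Fibroblast marker genes had medians of -0.06 and 0.23 in ventricle and 0.44 and 0.41 in atria, with 10 of 10 above 0 in both atrial comparisons. Endothelial markers had medians of 0.48 and 0.36 in ventricle and 0.39 and 0.24 in atria. The part of these cell types in the collagen values was not tested.

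**Figure D2:**
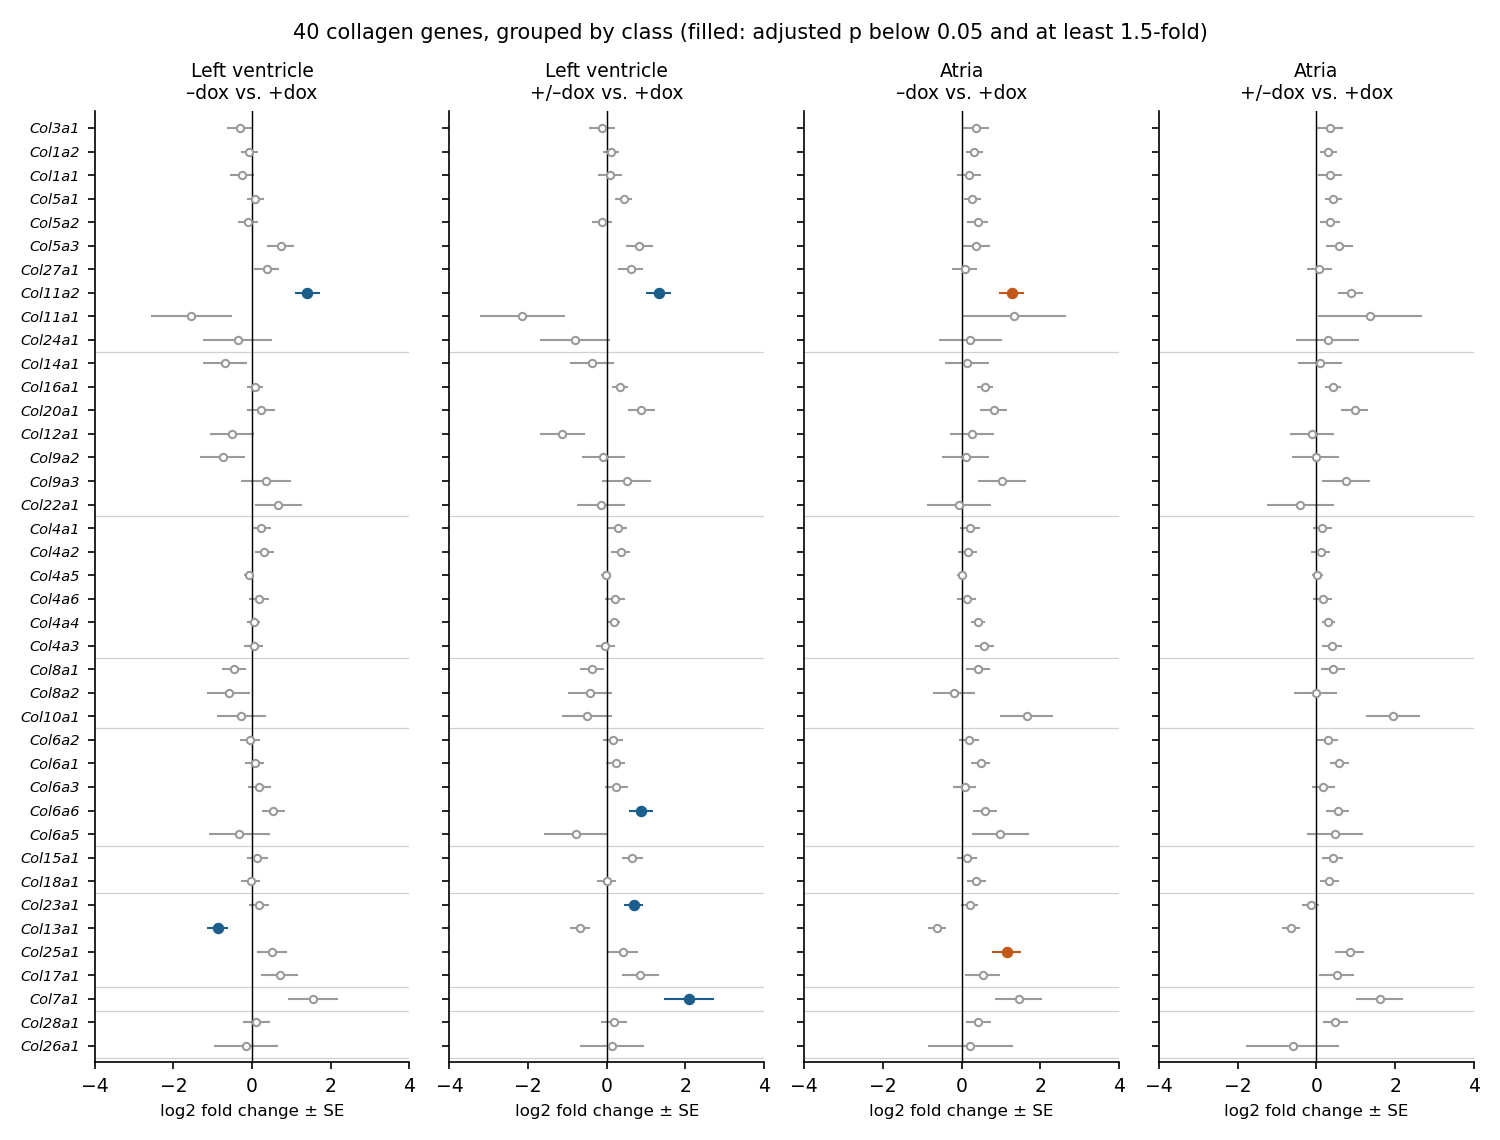
Log2 fold change ± SE (x axis) of the 40 collagen genes (rows, ordered by class with grey lines between classes) in –dox and +/–dox against +dox mice, for ventricle and atria. Filled points passed the adjusted p and the 1.5-fold minimum, 8 points in all, and Col11a2 is the one gene filled in 3 panels.

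Col11a2 (chr17:34039437-34066685, plus strand, GRCm38) encodes a minor fibrillar collagen that is known for cartilage and helps to nucleate fibrils, and it was the one member called in both tissues. Its level is low, at 46 to 188 reads per library. In CPM (read counts scaled by library size), the +dox ventricles had 0.614, 1.32 and 0.706, the +/–dox ventricles 2.29, 1.76 and 2.55, and the –dox ventricles 2.35, 1.99 and 2.71. All 6 ventricles without current repeat induction lay above all 3 +dox ventricles. Differences were 1.41 ± 0.31 in –dox (adjusted p = 0.00147) and 1.32 ± 0.31 in +/–dox (adjusted p = 0.00265). Atria showed 0.700, 0.805 and 0.722 CPM in +dox, 1.51, 1.47 and 2.42 in –dox and 1.23, 1.23 and 1.60 in +/–dox mice, again without overlap. Atrial differences were 1.27 ± 0.31 in –dox (adjusted p = 0.00461), and 0.87 in +/–dox with an adjusted p of 0.0676, short of the threshold. Without the atrial –dox replicate 3 the atrial value was 1.00 (adjusted p = 0.0510). Within library set A it was 1.17, 1.08 and 0.98 in the 3 comparisons called, with adjusted p of 0.0575, 0.0778 and 0.130, so all 3 calls were lost there.

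**Figure D3:**
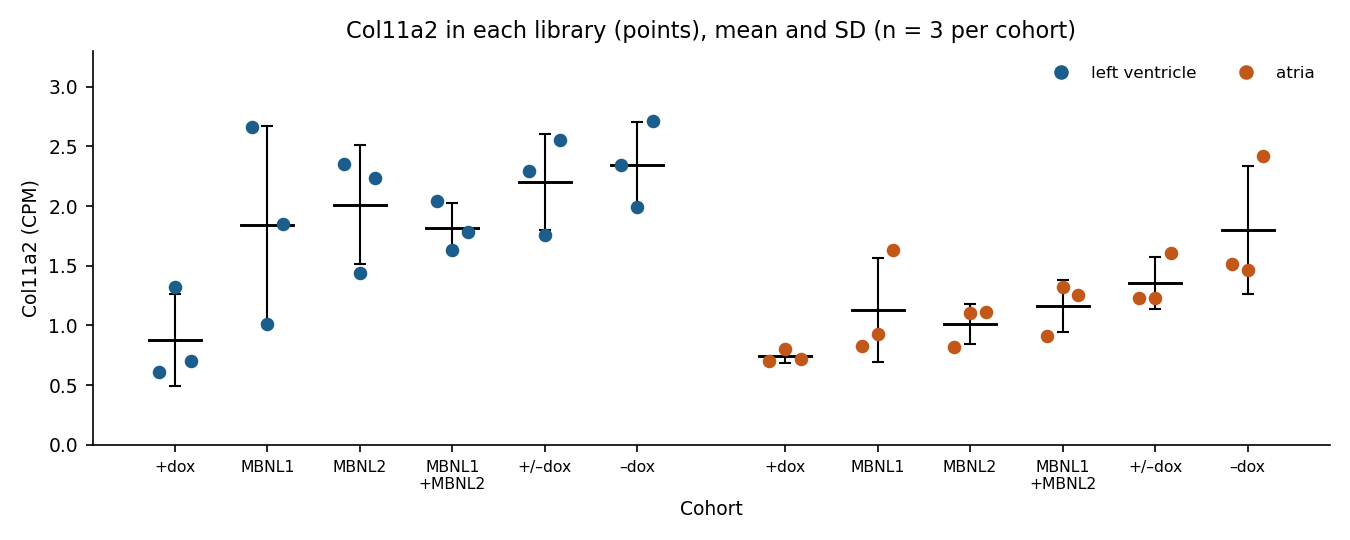
Col11a2 level (CPM, y axis) in each library (points) by cohort (x axis), with the mean and SD of 3 mice. The +dox ventricles lie between 0.614 and 1.32 and the –dox ventricles between 1.99 and 2.71, and the +dox atria between 0.700 and 0.805 against 1.47 to 2.42 in –dox.

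Col13a1 (chr10:61838236-61979108, minus strand, GRCm38) encodes a membrane-spanning collagen of cell adhesion sites and was the only member called lower in any dox comparison when all libraries were fitted without a library-set term or replicate block. Its ventricular CPM was 1.31, 1.81 and 1.64 in +dox and 0.833, 0.623 and 1.16 in –dox mice, without overlap. The difference was -0.87 ± 0.26 (adjusted p = 0.0139), and it missed the threshold without +dox replicate 2 (adjusted p = 0.0608), –dox replicate 1 (0.0519) or –dox replicate 2 (0.0928). Atrial levels were higher, at 8.21, 6.79 and 5.82 CPM in +dox, 4.76, 4.07 and 4.68 in –dox and 3.97, 4.17 and 5.12 in +/–dox mice. Both other atrial cohorts lay below every +dox atrium, with differences of -0.63 (adjusted p = 0.0620) and -0.65 (adjusted p = 0.0608) that were not called. Within library set A they were -0.77 and -0.89 and both were called.

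The other 3 members called in +/–dox ventricles belonged to different classes. Col7a1, which forms the anchoring fibrils under epithelia, was scarce at 0.102, 0.260 and 0.0614 CPM in +dox and 0.425, 0.813 and 0.633 in +/–dox mice, or 4 to 43 reads. The groups did not overlap, and the difference was 2.10 ± 0.64 (adjusted p = 0.0168). Without +dox replicate 1 or 3, or +/–dox replicate 2, its adjusted p was 0.0781, 0.0816 and 0.0666, and within library set A it was 0.165. Col6a6, an additional type VI chain, had 12.3, 16.0 and 11.04 CPM in +dox and 24.7, 27.1 and 20.6 in +/–dox mice, a difference of 0.88 ± 0.30 without overlap (adjusted p = 0.0385). Its read counts were not whole numbers and Col6a5 is a close paralog, so the level of each is uncertain. Leaving out +dox replicate 1 or 3, or +/–dox replicate 1 or 2, gave Col6a6 adjusted p of 0.117, 0.136, 0.0898 and 0.122. Col23a1, another membrane collagen, had 1.32, 1.77 and 2.61 CPM in +dox and 3.45, 2.87 and 2.75 in +/–dox mice, which again did not overlap. Its difference of 0.68 ± 0.24 (adjusted p = 0.0395) was not called without +dox replicate 1 (0.47, adjusted p = 0.232) or 2 (0.110), or without any one +/–dox replicate (0.0542 to 0.156).

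Col25a1, a membrane collagen made mainly by neurons and developing muscle, was called in –dox atria. Its atrial CPM was 0.936, 1.01 and 0.972 in +dox, 2.32, 1.88 and 2.27 in –dox and 1.81, 1.91 and 1.55 in +/–dox mice, so both cohorts lay above every +dox atrium. The –dox difference was 1.15 ± 0.37 (adjusted p = 0.0297). It lost its call without any one library but –dox replicate 2, at adjusted p between 0.0696 and 0.103, and within library set A (1.10, adjusted p = 0.0975). Schwann cell markers, which share the nerve compartment, summed to 10.9 to 14.5 TPM in +dox, 14.4 to 18.2 in –dox and 13.6 to 15.6 in +/–dox atria, and their part in Col25a1 was not tested.

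By edgeR over all libraries, none of the 10 most abundant collagens was called in any of the 4 dox comparisons. Some alternatives did call members of these 10: Col14a1 lower in –dox ventricles with library set as a covariate, with the replicate block and within set A, Col14a1 lower in +/–dox ventricles and Col1a1 and Col3a1 lower in –dox ventricles within set A, and Col15a1 higher in +/–dox ventricles with each tissue fitted alone. In the edgeR fit over all libraries, without these alternatives, fold changes of the 10 genes ran from -0.69 to 0.64, with a smallest adjusted p of 0.0890. Col3a1, which encodes the type III fibril chain, had 306, 242 and 165 CPM in +dox ventricles and 173, 173 and 232 in –dox ventricles, which overlapped. Its difference was -0.31 ± 0.33 (adjusted p = 0.570). Col1a1, the major type I chain, likewise overlapped at 131, 129 and 62.3 CPM in +dox and 70.4, 88.1 and 113 in –dox, a difference of -0.25 ± 0.30 (adjusted p = 0.618). For both genes the set-B mouse was lowest in +dox and highest in –dox.

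Another 4 ventricular members were called when the set-B libraries were left out. Within library set A, chosen as an alternative after the data were seen, –dox against +dox called Col14a1 at -0.86 (adjusted p = 0.00343), Col8a1 at -0.76 (0.00150), Col1a1 at -0.71 (0.0367) and Col3a1 at -0.66 (0.0441) besides Col13a1 at -1.10, so 5 members were called lower, where 1370 genes were called in all, and Col11a2 was not called. Col14a1, a FACIT of fibril surfaces, had 30.5, 31.7 and 51.1 CPM in +dox and 15.1, 18.9 and 36.3 in –dox ventricles, and its difference over all libraries was -0.69 ± 0.57 (adjusted p = 0.435). With library set as a covariate over all libraries it was called, at -0.75 ± 0.26 (adjusted p = 0.0339). The set-A libraries of the 2 groups did not overlap, while the set-B library was highest in each group. In all 10 groups that held both sets, Col14a1 was higher in the set-B library than in both others (1.60 to 3.08 times the mean of the others, median 2.23), as were 59 of the genes tested (0.307%). Col6a6 was lower in the set-B library in all 10 (0.487 to 0.796 times), as were 165 of the genes tested (0.858%). Col8a1, a short-chain collagen of vessels and activated fibroblasts, had 81.3, 73.6 and 37.1 CPM in +dox, 38.8, 52.5 and 47.9 in –dox and 49.7, 47.2 and 51.8 in +/–dox ventricles. Its 2 set-A +dox libraries lay above all 6 others and its set-B +dox library below them, with differences of -0.47 ± 0.30 (adjusted p = 0.303) and -0.37 (0.429) over all libraries. In +/–dox ventricles within set A, Col14a1 was -0.80 and Col8a1 -0.67, and both were called, as was Col20a1, another FACIT, at 1.18 (adjusted p = 0.0383). Activated fibroblast markers summed to 27.0 to 63.4 TPM in +dox, 26.3 to 45.9 in –dox and 28.3 to 33.4 in +/–dox ventricles, with medians of -0.59 and -0.90 over 9 genes and 1 of 9 called lower in each comparison.

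**Figure D4:**
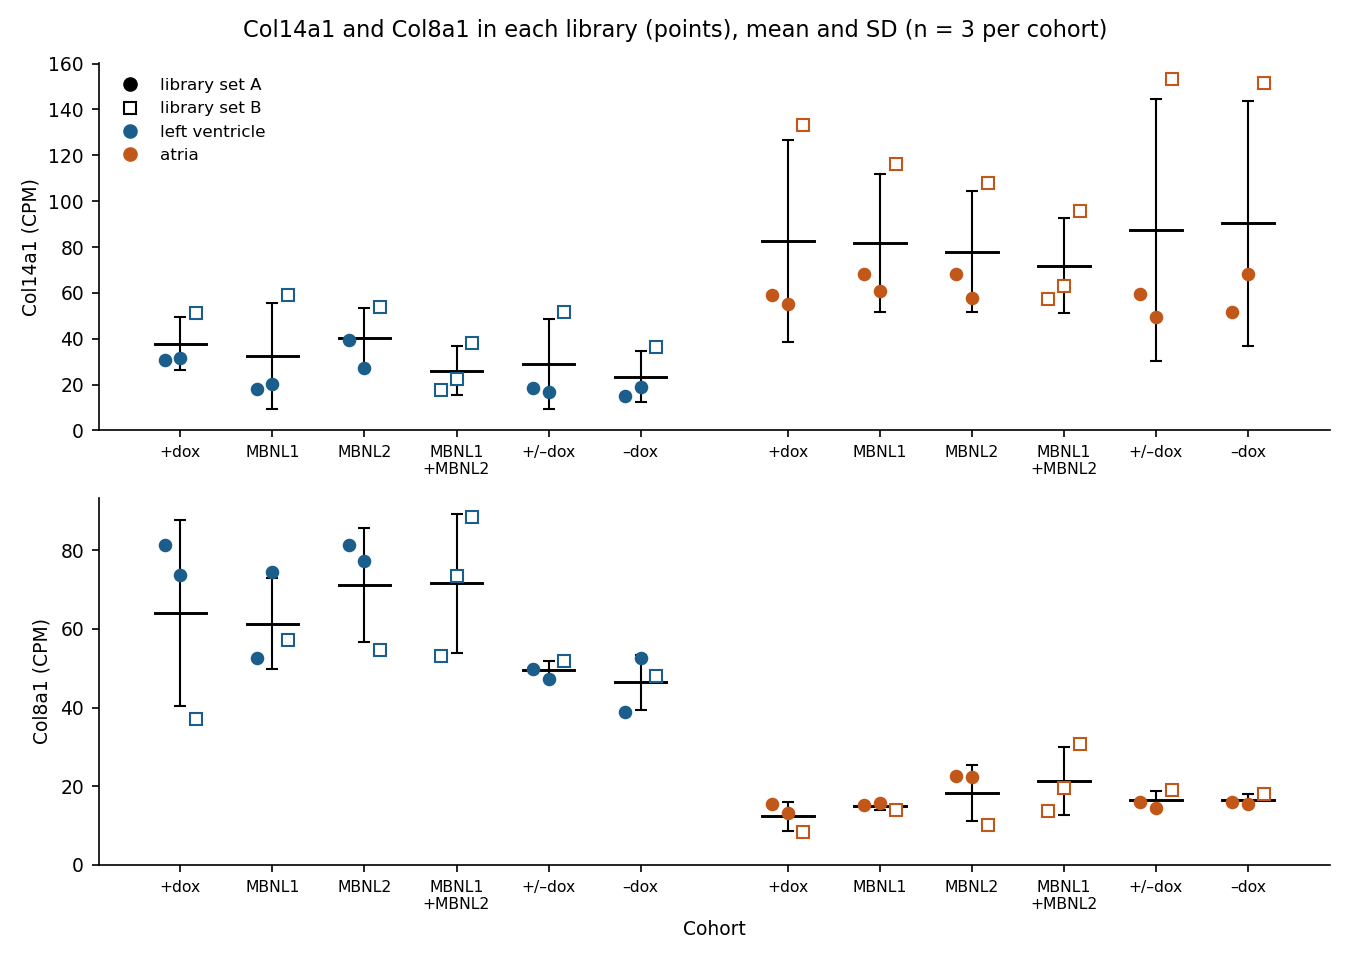
Col14a1 (top) and Col8a1 (bottom) level (CPM, y axis) in each library by cohort (x axis), with mean and SD of 3 mice; circles are library set A and squares set B, blue is left ventricle and orange atria. In the cohorts with both sets the Col14a1 square lies above both circles, by 1.60 to 3.08 times their mean, and the +dox ventricle has its Col8a1 square lowest at 37.1 CPM.

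Mice taken off doxycycline were also compared with mice that never received it. Between –dox and +/–dox mice, edgeR called 0 of 40 members in the ventricle and 0 of 40 in the atria, where 0.0312% and 0.0104% of all genes were called. Unadjusted p was below 0.05 for 1 and 0 members, against 8.25% and 4.72% of all genes, and DESeq2 called 0 members in both tissues. In the ventricle 30 of 40 values were below 0, with a median of -0.14 (all genes 0.00), and in the atria 23 of 40 were above 0, with a median of 0.02 (all genes 0.00).

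The second question was whether MBNL vectors changed collagens in mice that kept making repeat RNA. In ventricles, 1 of 40 members was called in the MBNL1 cohort, 2 in MBNL2 and 1 in MBNL1+MBNL2 against +dox, all higher in this fit, where 2.66%, 1.52% and 2.65% of all genes were called. Col11a2 was called in each of the 3, at 1.06 (adjusted p = 0.0296), 1.19 (0.0189) and 1.04 (0.0348). These comparisons share the 3 +dox ventricles, so they are not separate tests of that gene. Its ventricular CPM was 2.66, 1.01 and 1.85 in MBNL1, 2.35, 1.44 and 2.24 in MBNL2 and 2.04, 1.63 and 1.78 in MBNL1+MBNL2 mice. Only MBNL1 overlapped the +dox range, through its replicate 2. Each of the 3 calls was lost without +dox replicate 1 or 3. The MBNL1 value without its replicate 1, the library that stands apart in genes listed, was 0.70 (adjusted p = 0.201), and without its replicate 3 the adjusted p was 0.0531. MBNL2 lost the call without its replicate 1 or 3 (adjusted p of 0.0863 and 0.0672), and MBNL1+MBNL2 without its replicate 1 or 2 (0.147 and 0.0555).

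The members called in the MBNL ventricles changed with the treatment of library set. All MBNL1+MBNL2 libraries were of set B and 2 of 3 +dox libraries of set A. The MBNL1+MBNL2 mice were all male, with Xist at 0.08 to 0.15 TPM in their ventricles. The set covariate is estimated from the other cohorts, whose set-B libraries came from females. Set and sex therefore cannot be told apart in the covariate values. With set as a covariate, the MBNL1+MBNL2 comparison lost Col11a2 (0.96, adjusted p = 0.0609) and instead called Col14a1 lower at -1.27 (0.00487) and Col4a3 (0.75), Col4a4 (0.65) and Col6a6 (0.73) higher, so 0 calls were shared. Within set A, Col11a2 was 0.94 in MBNL1 (adjusted p = 0.163) and 0.99 in MBNL2 (0.191), neither called. MBNL1 there called Col14a1 lower at -0.69 (0.0285) and Col15a1 higher at 0.59 (0.0450), and MBNL2 called Col15a1 alone, at 0.76 (0.0235), so again 0 calls were shared with the fit over all libraries.

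Col5a3, a minor type V chain, was called in MBNL2 ventricles, with 19.0, 9.58 and 8.98 CPM against 5.99, 6.34 and 4.84 in +dox. The groups did not overlap, and replicate 1 stood well above the other MBNL2 mice. Its difference of 1.13 ± 0.34 (adjusted p = 0.0426) was 0.69 without that mouse (adjusted p = 0.291), and it was also lost without any one +dox mouse (0.0682 to 0.167) and within set A (1.23, adjusted p = 0.102). Over all 40 members 34 were above 0 in MBNL2 ventricles, against 49.8% of all genes, with a median of 0.47 (all genes 0.00). An unadjusted p below 0.05 was found for 12 members and 22.3% of all genes. DESeq2 called 7 members, and its share over all genes is not given here. Fibrillar genes had a median of 0.52 there, with 9 of 10 above 0, and type IV genes 0.44, with 6 of 6. The MBNL2 ventricles also held the highest mean fibroblast marker sum of the ventricular cohorts, at 274 to 355 TPM against 214 to 242 in +dox, and activated fibroblast markers at 58.2 to 104 against 27.0 to 63.4. Their part in the collagen values was not tested.

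In atria, edgeR called 0 of 40 members in MBNL1, MBNL2 or MBNL1+MBNL2 mice against +dox, where 0.13%, 0.0052% and 0.26% of all genes were called. Members with unadjusted p below 0.05 numbered 1, 2 and 9 of 40, against 1521, 831 and 1924 of the 19231 genes tested. DESeq2 called 0, 0 and 1 members. Medians were 0.20, 0.25 and 0.42 (all genes 0.002, -0.003 and -0.005). Values above 0 numbered 31, 29 and 34 of 40, against 50.5%, 49.1% and 49.0% of all genes. In the atrial MBNL1+MBNL2 cohort Col3a1 was at 310, 379 and 763 CPM against 304, 286 and 323 in +dox, so replicate 3 lay far above the +dox mice while replicate 1 lay within their range.

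Set against the +/–dox mice, edgeR called 0 of 40 members in each MBNL cohort of each tissue. Of all genes, 0.868%, 1.57% and 0.53% were called in MBNL1, MBNL2 and MBNL1+MBNL2 ventricles and 1.21%, 3.24% and 1.71% in the atria. Members with an unadjusted p below 0.05 numbered 2, 7 and 5 in ventricles and 0, 2 and 1 in atria, and DESeq2 called 0, 1 and 1 and 0, 1 and 0. Within set A, MBNL2 against +/–dox ventricles called 5 members, Col14a1, Col1a1, Col3a1, Col5a2 and Col8a1, where 424 genes were called in all.

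More members were called between chambers than between cohorts. In –dox mice, 14 of 40 members were called higher in atria than in ventricle and 5 lower, where 24.9% of all genes were called, 13.7% higher and 11.2% lower. In +dox mice, 5 members were called higher and 8 lower, where 25.0% of all genes were called, 13.2% higher and 11.8% lower. The paper lists the same mice for both tissues, and same-numbered atria and ventricles were correlated in their deviations from the group means at 0.111 to 0.221. With the replicate number as a block the counts were 21 of 40 in –dox and 16 in +dox. The shares of all genes above come from the fit without the block. Those with it are not given here, so the higher counts cannot be read as a result about the members. The block added Col5a3 at -0.80 and Col6a3 at -0.75 in –dox, and Col14a1 at 1.05, Col6a5 at 1.97 and Col18a1 at 0.62 in +dox. Without the block, 11 of the 19 calls in –dox and 8 of the 13 in +dox held with each library left out in turn. Fold changes are on the count scale, and atria to ventricle ratios were higher by a median of 0.54 (log2) over all genes on the TPM scale. By TPM 32 of 40 members were higher in –dox atria and by CPM 28, and in +dox 29 and 21. None of the members called changed direction between the scales.

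Among fibrillar genes, Col3a1 (1.04 ± 0.33, adjusted p = 0.0135), Col1a1 (0.83, 0.0297) and Col1a2 (0.68, 0.0112) were called higher in –dox atria. Their values in +dox mice were 0.36, 0.39 and 0.29 and were not called. All 3 lost their –dox call without ventricular –dox replicate 1 or atrial –dox replicate 3, and Col1a1 and Col3a1 also without ventricular –dox replicate 2. With library set as a covariate all 3 calls were lost as well, at 0.68 for Col1a1 (adjusted p = 0.104), 0.88 for Col3a1 (0.0519) and 0.54 for Col1a2, below the 1.5-fold minimum, as was Col1a2 within set A at 0.57. Col3a1 had 341, 317 and 526 CPM in –dox atria and 173, 173 and 232 in –dox ventricles, without overlap, and 304, 286 and 323 against 306, 242 and 165 in +dox mice, which overlapped. Of fibroblast markers, 6 of 10 were also called higher in atria in –dox mice and 3 of 10 in +dox. Their TPM sums were 407 to 742 in atria and 198 to 355 in ventricular libraries, on the scale where atria to ventricle ratios ran higher. Their part was not tested.

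Type IV genes split by pair. Col4a1 and Col4a2, the head-to-head pair shown above, were lower in atria in both cohorts, at -0.88 and -1.01 in –dox (adjusted p = 0.00477 and 0.00115) and -0.86 and -0.85 in +dox (0.00546 and 0.00506). Col4a1 was at 423, 341 and 522 CPM in –dox ventricles and 209, 207 and 282 in –dox atria, without overlap. Col4a6 was higher in atria, at 2.04 ± 0.26 in –dox (adjusted p = 1.81e-07) and 2.08 in +dox (1.25e-07), with 22.1, 24.4 and 26.3 CPM in –dox atria and 5.61, 6.04 and 6.00 in ventricles. Its promoter neighbour Col4a5 differed by 0.36 ± 0.13 (adjusted p = 0.0264), below the 1.5-fold minimum. Col4a3 and Col4a4, which encode the other chains of the kidney-type network, were higher by 0.66 and 0.76 in –dox atria, both called, and by 0.13 and 0.39 in +dox, neither called. The Col4a3 call was lost without any one –dox library but atrial replicate 1, with library set as a covariate (0.45, adjusted p = 0.104) and within set A (0.51, 0.0520), Col4a4 fell short of the 1.5-fold minimum with the covariate (0.57), and the +dox calls of Col4a1 and Col4a2 were lost without ventricular +dox replicate 1. Mural cell markers, of the cells that surround vessels, were lower in atria, with 5 of 8 called lower in –dox and 4 of 8 in +dox. Endothelial markers were mixed, with 1 of 8 called higher and 2 of 8 lower in each cohort and medians of -0.40 and -0.22. Their summed mean was 405 TPM in –dox atria against 309 in ventricle, and 313 against 227 in +dox mice. Over all genes, atria to ventricle ratios ran higher in TPM by a median of 0.54 (log2). These sums therefore do not rank the chambers. The part of either cell type was not tested.

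**Figure D5:**
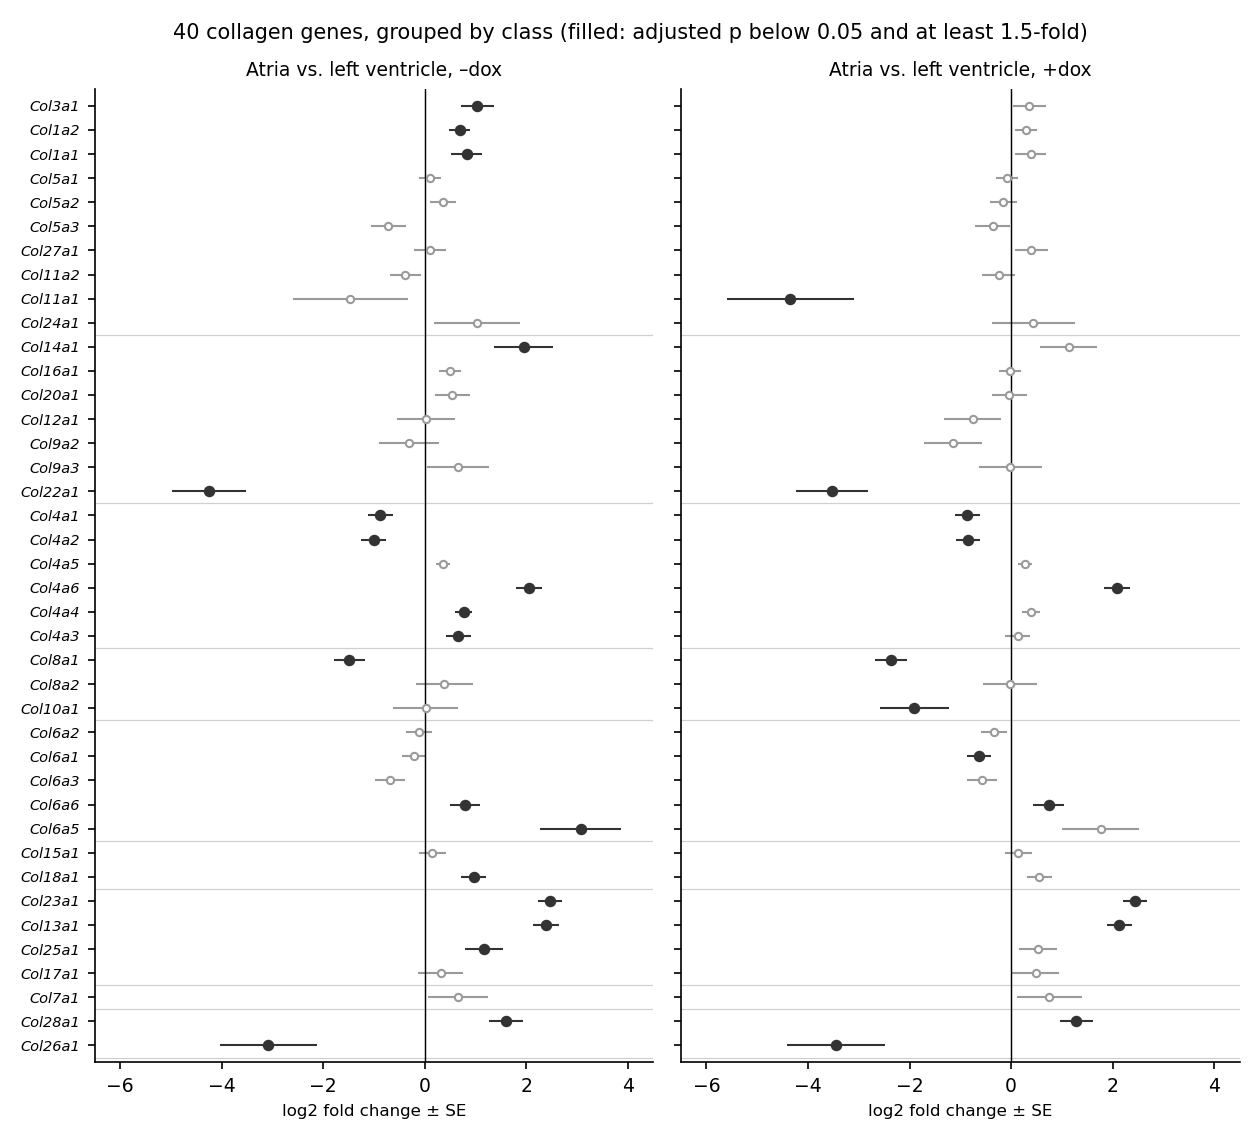
Log2 fold change ± SE (x axis) of atria over left ventricle for the 40 collagen genes (rows, ordered by class with grey lines between classes), in –dox (left) and +dox (right) mice. Filled points, 19 and 13 of 40, passed the adjusted p and the 1.5-fold minimum, and Col23a1, Col13a1 and Col4a6 lie above 2 while Col22a1 and Col26a1 lie below -3 in both panels.

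Of the 4 membrane-spanning genes, 3 were called higher in –dox atria. Col23a1 had 10.4, 11.7 and 13.2 CPM in –dox atria and 2.58, 1.62 and 2.22 in ventricles, a difference of 2.46 ± 0.24 (adjusted p = 6.85e-10). Col13a1 differed by 2.38 ± 0.26 (adjusted p = 3.62e-09). In +dox mice the values were 2.43 and 2.13, both called. Col25a1 was higher by 1.17 (adjusted p = 0.0108) in –dox mice, a call lost without ventricular –dox replicate 2, and by 0.53 (0.278) in +dox. Col6a5, the uncertain type VI chain, showed 3.07 ± 0.80 in –dox (adjusted p = 0.00266), with 17.6, 11.4 and 6.41 CPM in atria and 1.21, 1.91 and 1.08 in ventricles. Col14a1 was higher in –dox atria by 1.95 ± 0.58 (adjusted p = 0.00797), with the set-B library highest in both chambers, and the call was lost without atrial –dox replicate 3. Epicardial and mesothelial markers, of the heart's outer lining, were at 15.0 to 104 TPM in atria and 0.780 to 3.75 in ventricles, with 4 of 5 called higher in –dox mice. Macrophage markers were higher too, 6 of 6 in –dox, and the part of either was not tested.

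Besides Col4a1 and Col4a2, 3 members were called lower in –dox atria, namely Col8a1, Col22a1 and Col26a1. Col8a1 had 16.0, 15.5 and 18.1 CPM in –dox atria and 38.8, 52.5 and 47.9 in ventricles, a difference of -1.49 ± 0.31 (adjusted p = 0.000295), and -2.37 in +dox mice. Col22a1, a FACIT of muscle-tendon junctions, had 2 to 9 reads in –dox atria and 58 to 132 in ventricles, with a difference of -4.25 ± 0.73 (adjusted p = 1.48e-05), and -3.53 in +dox. Col26a1 had 0 to 11 reads in –dox atria and 12 to 37 in ventricles, at -3.08 ± 0.96 (adjusted p = 0.00922, lost without atrial –dox replicate 1 or 2), and -3.46 in +dox. Chosen after their values were seen, 3 more members were called lower in +dox atria alone. Col11a1 differed by -4.34 there, resting on 51, 137 and 3 reads in ventricles against 3, 5 and 1 in atria, so the groups met at 3 reads. Col10a1, a cartilage collagen, differed by -1.91, with 2 to 6 reads against 8 to 19, and it overlaps Nt5dc1 on the opposite strand. Its call was lost without ventricular +dox replicate 2 or atrial +dox replicate 1 or 3, without the filter on low counts and within set A (adjusted p of 0.0526 to 0.119). Col6a1 differed by -0.63, and by TPM its +dox means were 19.8 in atria and 20.9 in ventricle. That call was lost without the filter and without any one +dox library but ventricular replicate 3, down to -0.43 without ventricular replicate 1 (adjusted p = 0.214).

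Whether the dox effect differed between chambers was tested directly. The first counts below come from the fit without the replicate block, which leaves out that the paper lists the same mice for both tissues. For –dox against +dox, edgeR called 0 of 40 members, with 0.764% of all genes called, 1 member at an unadjusted p below 0.05 and 0 called by DESeq2. For +/–dox it called 0 of 40, with 0.489% of all genes called, 3 members at an unadjusted p below 0.05 and 0 by DESeq2. With the replicate block, Col8a1 was called in both (0.86, adjusted p = 0.0112, and 0.76, adjusted p = 0.0269) and Col14a1 in the first (0.85, adjusted p = 0.0256). Without it Col8a1 was 0.88 ± 0.43 (adjusted p = 0.458) and Col14a1 0.82 ± 0.79 (0.796). Col8a1 and Col14a1 each had a negative –dox difference in ventricle and a positive one in atria, 0.42 and 0.13.

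Genes that make, process and bind collagen were counted from lists. Of 35 genes of collagen synthesis, 2 were called lower in –dox ventricles, namely Adamts3, which removes the procollagen amino end, at -0.95 ± 0.15 (adjusted p = 2.83e-05), and P3h2, a prolyl 3-hydroxylase, at -0.65 (0.0336), where 4.13% of all genes were called lower. Adamts3 was lower in all 4 dox comparisons, at -0.65 in +/–dox ventricles, -0.83 in –dox atria and -0.86 in +/–dox atria. In atria Loxl4, a cross-linking enzyme, was higher at 0.86 (adjusted p = 0.0370) and 0.92 (0.0311). P3h4 was called higher in +/–dox ventricles at 0.59, and Tmem38b lower in +/–dox atria at -0.60. No further synthesis gene was called in these 4 comparisons.

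Over all genes, 7.6%, 6.6%, 5.23% and 3.99% were called in –dox and +/–dox ventricles and –dox and +/–dox atria, and 32.6%, 33.1%, 29.0% and 25.2% had an unadjusted p below 0.05. Against these shares, lists of 8 to 16 genes allow few calls. Of 15 breakdown genes tested, none was called in either ventricular comparison by edgeR, with 7 at an unadjusted p below 0.05 in each. In –dox atria Fap, a fibroblast protease, was higher at 1.09 ± 0.23 (adjusted p = 0.00108), and Timp4, a heart-rich inhibitor of matrix proteases, at 1.04 (0.0304), and in +/–dox atria Fap was at 0.78 (0.0235). None of 8 collagen receptors was called, with 4, 2, 4 and 4 at an unadjusted p below 0.05. Of 16 proteins that coat or join fibrils, Tnc, a matrix protein of injured tissue, was lower in –dox ventricles at -1.81 ± 0.44 (adjusted p = 0.00323) and in +/–dox at -1.75 (0.00416). Ogn, a small leucine-rich proteoglycan, was lower there at -0.76 and -0.59. Fn1, fibronectin, was higher in –dox atria at 0.82 (adjusted p = 0.00308). Of the fibrillar chains that these proteins process or coat, Col1a1, Col1a2 and Col3a1 were not called in any dox comparison over all libraries.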

How the data were processed

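RNA was isolated from left ventricle and atria, 250 ng per library entered a stranded mRNA kit (TruSeq Stranded mRNA), and reads were sequenced. Per the labels and methods, the authors aligned the reads with STAR 2.7.10b to mm10 and counted them with RSEM 1.3.1 on GENCODE annotation. They deposited 2 units per gene and library: expected counts (estimated counts that need not be whole) and TPM values, which are scaled for gene length and library. The strand setting of the counting is not given in the sources used here, and Col4a1 and Col4a2 overlap on opposite strands.

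Expected counts were rounded and tested with edgeR 4.0.16 (R 4.3.3) by the quasi-likelihood test, with all 36 libraries, 12 group means, TMM scaling, filterByExpr and robust fitting, and adjusted p over 19231 genes by Benjamini-Hochberg. CPM values were scaled with TMM. TPM was used for levels between genes and for class shares. Depth was 55.03 to 97.09 M counts per library. Each group holds 3 mice. No pair of replicate libraries agreed within sampling noise (chi-square per gene 9.62 to 128.9). Scripts were tested on simulated data. Gene locations come from a GENCODE annotation of GRCm38, promoter windows from RefSeq (GRCm38.p6), where 32 of the 40 genes had one.

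The members and lists were chosen with earlier results of these data known. Named genes were those called in a dox or MBNL comparison against +dox, the 10 most abundant, the 5 largest chamber differences in each direction in –dox mice, the 2 nearest the count minimum and, from the lists, those called in a dox comparison. Alternatives were RLE scaling, no filter, DESeq2 1.42.0, each tissue alone, library set as a covariate, each library left out, no fold minimum, and the replicate number as a block. Samples with the same number were correlated in their deviations from the group means at 0.111 to 0.221 between atria and ventricle. This was computed for the 6 pairs of the –dox and +dox cohorts only. Within a tissue the range was -0.129 to 0.247, which covers those values, so the correlations do not single out the chamber pairing. The number was taken to pair chambers, for which the paper lists the same mice in every cohort, but not mice within a tissue. The fit within library set A was added after the data were seen.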

Additional observations from a re-analysis of the deposited data

How the results depend on the processing

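Of the 44 calls named by gene and comparison, 583 values were computed under alternatives, 478 kept the call, 105 lost it and 0 changed sign, and 18 calls, all between chambers, held in every alternative. Dropping the fold minimum could not remove a call, so its part of the 478 was fixed in advance. The replicate block within a tissue, where numbers do not pair the mice, is also counted in the 583. Counts of members called moved by over 1.5 times as follows. With each tissue fitted alone the count was 1 in –dox ventricles (2 in the fit over both), 0, 1 and 0 in MBNL1, MBNL2 and MBNL1+MBNL2 ventricles (1, 2 and 1), 5 in –dox atria (2), 5 in +/–dox atria (0), 1 in MBNL1+MBNL2 atria (0) and 2 in MBNL2 against +/–dox atria (0). Without the filter it was 2 in +/–dox ventricles (4) and 1 in MBNL2 ventricles. With DESeq2 it was 2 and 7 in MBNL1 and MBNL2 ventricles, 1 in MBNL2 and 1 in MBNL1+MBNL2 ventricles against +/–dox, 5 and 4 in –dox and +/–dox atria, 1 in MBNL1+MBNL2 atria and 1 in MBNL2 against +/–dox atria. With library set as a covariate it was 2, 5 and 4 in the MBNL ventricles, 1 in MBNL1+MBNL2 against +/–dox in each tissue, 1 in +/–dox atria and 1 in MBNL1+MBNL2 atria. Within library set A it was 5 in –dox ventricles, 2 and 1 in MBNL1 and MBNL2 ventricles, 5 in MBNL2 against +/–dox ventricles, 1 in +/–dox atria, 3 in MBNL2 against +/–dox atria and 1 for the –dox difference between chambers. The causes of these moves were not tested.

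With the replicate block, 1 member was called in MBNL1+MBNL2 against +/–dox ventricles (Col23a1, -0.91, adjusted p = 0.0147), 2 for the –dox and 1 for the +/–dox difference between chambers, and 3 in –dox ventricles, where Col14a1 was added at -0.75. Within a tissue the numbers do not pair the mice.

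Leaving out 1 library gave 1 to 3 calls in –dox ventricles, 1 to 4 in +/–dox, 0 to 1, 0 to 4 and 0 to 2 in the 3 MBNL ventricle cohorts, 0 to 2 in MBNL1+MBNL2 against +/–dox ventricles, 0 to 3 and 0 to 1 in –dox and +/–dox atria, 14 to 17 between chambers in –dox and 9 to 13 in +dox. Col1a1 in +/–dox ventricles (0.08, not called) was -0.31 within set A and ranged from -0.19 (without +dox replicate 3) to 0.25 with 1 library left out, and -0.05 without +/–dox replicate 3, and Col3a1 there (-0.12) ranged from -0.33 to 0.10 (without +dox replicate 1). By CPM, type IV genes took 41.4% of the collagen sum in ventricle and 28.1% in atria. The 3 mice per group limit all of these calls, and members with few reads, such as Col7a1 and Col10a1, carry counting error as well.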
